A study of Homo sapiens with 3 samples.

Results

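The 70 captured HindIII fragments of 2q35 that start at or beyond 218.14 Mb of chromosome 2 form an unbroken block from 218140414 to 218362744 (GRCh37), which is the telomeric end of the captured region. They were chosen by the start positions in the deposited list of captured fragments, with no measured value, and make up 70 of the 227 fragments captured at 2q35 and of the 1077 captured in the series. The block covers 222 kb in the 3' part of DIRC3, a long non-coding RNA gene, and a second breast cancer risk signal lies in it near 218.30 Mb. Fragment lengths run from 15 to 25295 bp with a median of 1625 bp. The fragment from 218295541 to 218301734 holds the risk position.

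Capture Hi-C joins DNA ends that were neighbours in the fixed nucleus and enriches by hybridisation those ligations in which one end belongs to a chosen fragment. The series asked which sequences breast cancer risk regions touch in breast cells. It measured BT483, a line from a primary invasive ductal carcinoma grown in RPMI medium with insulin, SUM44, a line from a pleural effusion grown in phenol-red-free medium with 1 nM estradiol, and GM06990, a lymphoblastoid line of B lymphocytes. All 3 were fixed with formaldehyde (2%) for 5 min and cut with HindIII. BT483 nuclei were released with trypsin and those of the other lines with a dounce homogeniser. Effects of the lysis, of the medium and of the estradiol, listed for SUM44 alone, therefore cannot be told apart from the line. Each line was deposited as 1 sample of 2 replicates (n = 2 per line throughout), and no label calls these separate cultures, so the p-values cover only a spread that may be technical.

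Non-coding risk variants often lie in distal regulatory DNA, and such DNA can act on a promoter that is far away along the chromosome when chromatin folding brings both together. Contact frequency in Hi-C falls with distance along the chromosome, so a contact is read against the level usual for its distance. Centromeric of DIRC3 lie TNP1, which encodes a DNA-packing protein of spermatids, and IGFBP5 and IGFBP2, which encode secreted proteins that bind insulin-like growth factors. TNS1, the gene of a focal adhesion protein, lies telomeric. An annotation of GRCh37 was not used here, so no target below is assigned to a gene.

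Depth differed among the libraries. Contacts of the 70 fragments with targets outside the captured region, within 5 Mb of it, numbered 8988 and 65090 in replicates 1 and 2 of BT483, 38090 and 35085 in GM06990, and 126869 and 113841 in SUM44. Their trans contacts, those with other chromosomes, numbered 64260 and 282186, 123977 and 257403, and 178551 and 188575 in the same order. The block held 30.6% to 36.1% of the contacts of 2q35 in the 6 libraries. Of the 70 fragments, 4 had at most 450 trans contacts over all libraries, and the other 66 had at least 1239.

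Contacts with the telomeric side, summed over the 70 fragments, were 8.35 and 12.5 per 100 trans contacts in BT483, 17.9 and 7.90 in GM06990, and 41.7 and 35.4 in SUM44. Centromeric contacts were 5.64 and 10.6 in BT483, 12.8 and 5.73 in GM06990, and 29.4 and 25.0 in SUM44. Both SUM44 libraries stood above the other 4 on each side, and the ranges of BT483 and GM06990 overlapped. The replicates of GM06990 differed more than those of the other lines. The other 157 fragments of 2q35 had a like order, with 8.60 ± 2.86 (mean ± SD, n = 2), 13.3 ± 7.60 and 31.8 ± 2.71 on the telomeric side in BT483, GM06990 and SUM44, and 8.78 ± 2.80, 11 ± 6.17 and 30.5 ± 3.02 on the centromeric side.

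Each captured fragment and side was then tested between lines with its trans count as offset. All 140 combinations of a fragment of the block and a side entered the fit, which held 2088 over all captured regions. SUM44 was higher than GM06990 at 52 of 70 centromeric and 49 of 70 telomeric sides (edgeR, adjusted p under 0.05), beside 78.3% of all sides tested. Both SUM44 libraries lay above the other 4 at 69 of 70 fragments centromerically and at 70 of 70 telomerically. The median log2 difference was 1.59 in the block and 1.65 over all sides. BT483 was lower than SUM44 at 56 centromeric and 66 telomeric sides, beside 78.8% of all sides, with medians of -1.87 and -1.78. BT483 and GM06990 differed at 0 sides of the block, beside 0% of all sides; 1 had an unadjusted p under 0.05 by edgeR, and DESeq2 called 0. The shares of the block were thus near the general difference in cis to trans ratio.

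Factors that centre all sides (TMM) moved the median of all sides from 1.65 to 0.01 for SUM44 against GM06990 and from -1.78 to -0.02 for BT483 against SUM44. Relative to that general shift SUM44 was higher than GM06990 at 2 sides of the block and lower at 2, beside 0.623% and 2.63% of all sides (3.26% in either direction). BT483 was lower than SUM44 at 10 telomeric sides and higher at 1 centromeric side, beside 2.39% lower and 8.05% higher of all sides (10.4% in either direction). It was lower than GM06990 at 12 sides and higher at 4, beside 8.43% and 11.1% (19.5% in either direction). Without the TMM factors, leaving out either BT483 or either SUM44 library ended all calls of SUM44 against GM06990 and of BT483 against SUM44. Without GM06990 replicate 2, edgeR called 4 sides between BT483 and GM06990.

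The fragment from 218230849 to 218232200 was the one in which SUM44 exceeded GM06990 on both sides with either scaling. Its centromeric contacts per 100 trans contacts were 6.89 and 13.6 in BT483, 9.05 and 4.16 in GM06990, and 35.3 and 29.3 in SUM44. On the telomeric side they were 11 and 16.9, 13.9 and 6.05, and 51.1 and 41.7. The log2 differences of SUM44 from GM06990 were 2.29 (SE 0.71, edgeR adjusted p = 0.0321) and 2.22 (SE 0.68, adjusted p = 0.0321), and with TMM factors 0.64 (adjusted p = 0.0369) and 0.58 (adjusted p = 0.0397). With TMM factors BT483 was also higher than GM06990 there, by 0.78 centromerically (adjusted p = 0.00478) and 0.63 telomerically (adjusted p = 0.0106).

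Among the largest differences of SUM44 from GM06990 were also the telomeric side of the fragment from 218250629 to 218252882, at 2.18 (SE 0.65), and the centromeric side of that from 218245708 to 218250147, at 2.23 (SE 0.70; both edgeR adjusted p = 0.0321). Neither passed the threshold with TMM factors (adjusted p of 0.0649 and 0.217). The 2 further fragments in this list were among the 4 of low depth. The fragment from 218229038 to 218229241 had telomeric counts of 1 and 2 in GM06990 against 26 and 24 in SUM44, and that from 218214507 to 218217173 had centromeric counts of 1 and 1 against 22 and 23. For BT483 against SUM44 the largest telomeric differences were all in fragments of low depth. Counts there were 0 and 0 against 9 and 6 for the fragment from 218289408 to 218289441, 0 and 3 against 38 and 34 for that from 218214507, and 0 and 1 against 4 and 5 for that from 218212600 to 218214506, so no fold is given.

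The largest centromeric differences of BT483 from SUM44 were in deeper fragments. The fragment from 218167899 to 218173937 had 3.66 and 11.1 contacts per 100 trans contacts in BT483 against 40.6 and 45.0 in SUM44, a log2 difference of -2.51 (SE 0.70, edgeR adjusted p = 0.0131). Its neighbour from 218167837 to 218167898, of only 62 bp, had 2.63 and 9.06 against 32.9 and 34.3, a difference of -2.50 (SE 0.71, adjusted p = 0.0131). The latter stood at 0.25 (adjusted p = 0.708) with near cis totals as the scale. That scaling moved the median of all sides of this comparison from -1.78 to -0.03, and single sides moved by unlike amounts.

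By the mean over the 6 libraries, in which SUM44 weighs most, the fragment from 218254339 to 218261778 had the highest contact of the block on both sides. Its telomeric contacts per 100 trans contacts were 9.10 and 20.8 in BT483, 31.3 and 12.1 in GM06990, and 85.4 and 83.4 in SUM44. Centromerically they were 6.80 and 16.9, 23.1 and 8.44, and 60.3 and 60.9, and BT483 lay below SUM44 by 2.35 on the log2 scale (log2 difference -2.35, SE 0.70, edgeR adjusted p = 0.0131). By the same mean, next on the telomeric side came the fragment from 218303369 to 218316808, with means of 15.5 ± 6.24 in BT483, 27.6 ± 8.69 in GM06990 and 69.0 ± 3.61 in SUM44 (SD, n = 2), and that from 218261779 to 218268361, with 15.0 ± 5.21, 20.9 ± 11.6 and 73.2 ± 3.47. On the centromeric side the fragment from 218173938 to 218182158 came next, with 13.9 ± 7.16, 16.0 ± 7.68 and 52.1 ± 3.08, and then that from 218303369, with 14.1 ± 5.34, 19.3 ± 7.07 and 48.2 ± 2.98. These 4 fragments are 6583 to 13440 bp long. The order differed between lines: the fragment from 218254339 was first on both sides in SUM44, and that from 218303369 was first on both sides in GM06990 and on the centromeric side in BT483. On the telomeric side of BT483 the last fragment of the block, from 218358948 to 218362744, was highest, with 21.5 ± 7.52. Of its telomeric contacts in BT483, 19.7% in replicate 1 and 4.30% in replicate 2 lay in the directly adjoining target.

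By the same mean over the 6 libraries, 3 fragments were lowest on either side. The fragment from 218159427 to 218160714 had 4.85 ± 1.91 centromeric contacts per 100 trans contacts in BT483, 5.33 ± 2.49 in GM06990 and 15.1 ± 1.61 in SUM44, and its neighbour from 218159344 to 218159426 had 4.71 ± 3.92, 5.33 ± 3.46 and 16.3 ± 4.39. That from 218253865 to 218253879, the shortest of the block, had 7.07 ± 6.92, 4.73 ± 1.87 and 16.0 ± 5.10. Telomerically the 3 had 6.35 ± 0.146, 5.06 ± 3.84 and 5.07 ± 7.17 in BT483, 7.81 ± 4.30, 7.42 ± 4.72 and 8.52 ± 2.41 in GM06990, and 19.4 ± 1.94, 20.8 ± 2.28 and 20.2 ± 7.04 in SUM44. Within single lines other fragments could be lower, such as those of low depth, which had means down to 0 on the telomeric side of BT483 and on both sides of GM06990.

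Fragments of at least 4000 bp had the highest median cis contact per trans contact in all 3 lines. Over the 66 deeper fragments Spearman's rho of length and contact was 0.64 to 0.72 for either side and any line, a description only, since neighbouring fragments share libraries and position. In SUM44 the median telomeric contact was 57.7 per 100 trans contacts in the 17 fragments of at least 4000 bp, 33.1 in the 33 of intermediate length and 34.1 in the 16 under 500 bp. The medians in BT483 were 12.4, 9.78 and 8.31, and in GM06990 18.8, 11.3 and 10.5. Length therefore varies with the ranking of fragments given above, and its part in that ranking was not tested.

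The fragment at the risk position, from 218295541 to 218301734, had 4914 centromeric and 6540 telomeric contacts over the 6 libraries. Its telomeric contacts per 100 trans contacts were 9.52 and 15.3 in BT483, 30.5 and 13.8 in GM06990, and 64.7 and 63.8 in SUM44. Centromerically they were 6.53 and 13.9, 21.8 and 11.7, and 44.7 and 46.6. SUM44 exceeded GM06990 by 1.54 (SE 0.66, edgeR adjusted p = 0.0353) and 1.45 (SE 0.68, adjusted p = 0.0445) on the telomeric and centromeric side, and with TMM factors these were -0.10 (adjusted p = 0.786) and -0.24 (adjusted p = 0.561). With TMM factors BT483 was lower than GM06990 on both sides, at -0.70 (SE 0.15, adjusted p = 0.00489) and -0.63 (SE 0.18, adjusted p = 0.0227), and without them the log2 differences were -0.83 and -0.70 (adjusted p = 1 for both).

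The risk fragment stood above the distance background over several windows of 50 kb at the centromeric edge of the capture. In the window from 217550001 to 217600000 its ratio to the background was 3.57 ± 0.0506 for BT483, 4.46 ± 0.591 for GM06990 and 6.01 ± 0.628 for SUM44 (± SD, n = 2), from 11 and 58, 52 and 37, and 174 and 163 contacts. In that from 217450001 to 217500000 it had 1.75 ± 0.837, 3.01 ± 0.101 and 5.04 ± 0.450 times. In that between them, from 217500001 to 217550000, it had 2.64 ± 0.385, 2.46 ± 0.761 and 4.13 ± 0.559 times, and in that from 217600001 to 217650000, at the edge itself, 0.931 ± 0.527, 1.93 ± 0.0319 and 3.80 ± 0.528 times. SUM44 had the highest mean in these 4 windows, and the order of BT483 and GM06990 varied. Ratios above the background were not limited to the edge, and those farther out on this side varied. In the window from 213750001 to 213800000 the ratio was 4.03 ± 1.54, 3.29 ± 0.0323 and 5.19 ± 0.920 times, from 35 contacts over all libraries. In that from 217050001 to 217100000 it was 0.451 ± 0.638, 4.03 ± 1.48 and 1.17 ± 0.326 times. No single target of this fragment passed the call, with smallest adjusted p-values of 1 in BT483 and GM06990 and 0.153 in SUM44, where 44 contacts with the target from 217563273 to 217565782 were 8.95 times the background (exact Poisson 95% interval 6.51 to 12.0).

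Pairs of a captured fragment and a target were set against a distance background of each line, the count usual for the distance and the captured fragment, and called at an adjusted p of at most 0.01. In BT483 4 of the 212870 pairs of the block were called, beside 0.000579% of all 690307 pairs of 2q35, and these 4 were all the calls of that line at the locus. In SUM44 1 was called, beside 0.000435%, and in GM06990 0, beside 0%. Of the pairs of the block that held 5 or more contacts, 595 of 2539 in GM06990 reached an unadjusted p under 0.05 (one-sided negative binomial). In BT483 it was 819 of 2246 and in SUM44 2102 of 11620. Requiring 5 contacts favours small p-values, so these counts do not measure an excess. Every call of the block had the same target fragment, 217560727 to 217563272, on the centromeric side. No called pair of BT483 remained with replicate 1 alone and 2 remained with replicate 2 alone, and the call of SUM44 ended in either replicate alone.

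The called pairs of BT483 came from 2 pairs of near neighbours in the block. The fragment from 218232201 to 218236450 had 5 and 26 contacts with the shared target in the replicates, 21.8 and 13.9 times the background, and its adjusted p was 0.00133. Its neighbour from 218230849 to 218232200 had 4 and 23 contacts, together 13.2 times the background (exact Poisson 95% interval 8.68 to 19.2, adjusted p = 0.00549). The fragment from 218252928 to 218253864 had 3 and 23 contacts, 14.1 times (9.23 to 20.7, adjusted p = 0.00383), and that from 218250629 to 218252882 had 3 and 31 contacts, 11.7 times (8.08 to 16.3, adjusted p = 0.00720). Replicate 1 of BT483 holds few of these contacts but lies above the background for each. In SUM44 the pair of 218232201 had 41 and 40 contacts, 12.3 and 14.0 times, with an adjusted p of 0.00630.

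With an adjusted p of at most 0.05 the block had 12 calls in SUM44, 4 in BT483 and 0 in GM06990, beside 0.00261%, 0.00101% and 0.000145% of all pairs. The 12 of SUM44 came from 6 captured fragments. Targets were 217560727 with 5 of them, its telomeric neighbour from 217563273 with 4, its centromeric neighbour from 217552337 with 2, and the fragment from 217461897 with 1. The fragment from 218254339 to 218261778 had 4 of them, at 11.3 to 12.3 times the background, and that from 218261779 to 218268361 had 2, at 12.2 and 11.9 times. The outermost came from the fragments starting at 218173938, at 13.4 times the background from 22 contacts, and at 218344530, at 11 times from 50 contacts. With distance as the only term, no call from 218254339, 218261779 or 218173938 passed 0.05 (one-sided negative binomial, adjusted p from 0.18). That from 218173938 fell to 4.65 times. Those from 218230849 and 218344530 passed, at 0.00184 and 0.0498, and those from 218232201 lay between 0.00369 and 0.0512. The whole centromeric side of 218254339 had 2.90 and 3.23 times the background in SUM44.

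Contact with the shared target was not limited to the called fragments. Summed over the block it was 6.85 and 6.34 times the background in the replicates of BT483 (71 and 464 contacts), 2.82 and 2.69 times in GM06990 (160 and 132 contacts), and 5.82 and 6.47 times in SUM44 (969 and 985 contacts). Both breast lines lay above GM06990 without overlap. Against GM06990 the log2 difference was 1.24 for BT483 (SE 0.18, edgeR adjusted p = 4.66e-05), that for SUM44 was 1.16 (SE 0.17, adjusted p = 1.3e-05), and between the breast lines it was 0.09 (SE 0.17, adjusted p = 0.847). The differences from GM06990 kept their direction and call in each alternative run. This target was singled out by pair calls in these same counts, all of them in the breast lines. The test therefore reuses the values that picked it and is no separate support for a difference from GM06990. The other 157 fragments of 2q35 had mean ratios with this target of 3.78 ± 0.491 for BT483, 1.99 ± 0.194 for GM06990 and 2.89 ± 0.0742 for SUM44 (± SD, n = 2).

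Of the 64 fragments of the block with at least 1 contact expected in SUM44, BT483 had 63 above the background, GM06990 56 and SUM44 64, with medians of 5.36, 2.67 and 5.73 times. BT483 stood above GM06990 in 56 of them and SUM44 in 62, for a target that was picked by calls in the breast lines. In BT483 the ratio was 2.77 at the fragment from 218222908, 13.2 and 14.7 at those from 218230849 and 218232201, 4.53 at that from 218244714, and 11.7 and 14.1 at those from 218250629 and 218252928. SUM44 had 4.57, then 11.1 and 13.2, then 6.45, then 9.22 and 7.54 at the same fragments, and 11.9 and 12.2 at the fragments from 218254339 and 218261779. GM06990 had 2.92 times at the fragment from 218222908 and between 1.88 and 3.44 times at the next 5 of these, from at most 9 contacts each. At those from 218254339 and 218261779 it had 3.61 and 5.28 times. Most of these fragments were named for calls in the breast lines, and GM06990 was higher elsewhere. It had 5.06 times at 218342829, against 3.27 in BT483 and 5.17 in SUM44. Its highest ratio was 8.53, at 218358948, against 10.9 and 9.20. Its profile was not resolved at this depth. Captured fragments were ordered here by position, and their ratios share libraries and target.

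Around the shared target the mean ratio of the block was highest at 217560727 in both breast lines. Replicate 1 of BT483 was higher at 217563273, with 7.10 against 6.85 times, so the highest target of BT483 was not resolved. In BT483 it was 5.33 ± 0.744 at the target from 217552337, 6.59 ± 0.361 at 217560727, 6.55 ± 0.781 at 217563273 and 4.20 ± 0.53 at 217565783, 3.16 ± 0.747 at 217570354 and 2.33 ± 0.941 at 217573631 (mean ± SD, n = 2). In SUM44 the ratios were 5.06 ± 0.249, 6.14 ± 0.461, 5.45 ± 0.228, 3.63 ± 0.112, 3.21 ± 0.069 and 2.57 ± 0.017. GM06990 had 3.14 ± 0.39, 2.75 ± 0.0883, 3.81 ± 0.733, 2.25 ± 0.53, 2.76 ± 0.508 and 2.09 ± 0.222. Its profile was uneven, with its highest value at 217563273, and its means were below those of both breast lines at each of these 6 fragments, by less than the SDs of BT483 and GM06990 together at the last 2.

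Target fragments were compared between lines with contacts summed over the block and each replicate's distance background as offset. Of the 670 targets of the block that were tested, 48 were higher and 7 lower in BT483 than in GM06990, beside 6.52% higher and 5.59% lower of all 10172 targets tested in the series. SUM44 had 92 higher and 64 lower than GM06990, beside 9.51% and 7.97%. BT483 was higher than SUM44 at 1 target and lower at 2, beside 0.433% and 0.482% (0.914% in either direction). The comparisons with GM06990 share its libraries, so their calls are not independent. Since testing required at least 50 contacts in 1 line and SUM44 had the most contacts, the filter can favour targets high in SUM44. This holds for the stretches below and for all targets tested in the series alike. With the near cis total as offset in place of the distance background, BT483 had 21 higher and 52 lower than GM06990 and SUM44 had 69 higher and 85 lower, and with TMM factors SUM44 had 72 higher and 76 lower. The balance of higher and lower targets therefore depended on the scaling.

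The number of called targets moved with single libraries. For BT483 against GM06990 it was 105 without BT483 replicate 1, 21 without BT483 replicate 2, 30 and 28 without GM06990 replicates 1 and 2, and 32 without either SUM44 replicate. For SUM44 against GM06990 it was 93 and 74 without GM06990 replicates 1 and 2, and 53 and 46 without SUM44 replicates 1 and 2. For BT483 against SUM44 it was 22 and 8 without BT483 replicates 1 and 2, and 0 without either SUM44 replicate.

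The targets that differed lay in stretches, which were chosen after their values were seen. Between 217350001 and 217650000, at the centromeric edge of the captured region, the block had 2.15 and 2.30 times the background in BT483, 1.73 and 1.68 in GM06990, and 2.70 and 2.70 in SUM44. Of 70 tested targets there 18 were higher than GM06990 in BT483 and 42 in SUM44, and 0 lower. The other 157 fragments of 2q35 had 1.19 ± 0.0305, 1.08 ± 0.022 and 1.14 ± 0.0152 times there. With near cis totals BT483 had 7 higher and 1 lower than GM06990 in this stretch, and SUM44 29 higher and 0 lower.

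Further out, between 217050001 and 217300000, the order of the lines turned round. The block had 1.05 and 1.08 times the background in BT483, 1.37 and 1.29 in GM06990, and 0.806 and 0.749 in SUM44. Of 75 tested targets 37 were lower in SUM44 than in GM06990 and 0 higher, and in BT483 1 was lower and 0 higher. The other fragments of 2q35 showed the same order at a lower level, with 0.576 ± 0.0207, 0.794 ± 0.000263 and 0.444 ± 0.0132 times. SUM44 stayed lower under near cis totals (49 of 75) and TMM factors (38 of 75).

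On the telomeric side the window from 218350001 to 218400000, at the telomeric edge of the block, had 1.10 and 1.36 times the background in BT483, 0.652 and 0.669 in GM06990, and 1.32 and 1.28 in SUM44. Of its 13 tested targets 6 were higher than GM06990 in BT483 and 9 in SUM44, and 0 lower. This window includes the target that adjoins the block, whose expected counts are given below. Between 218500001 and 218650000 the block had 1.07 and 1.11, 0.805 and 0.820, and 1.09 and 1.08 times, with 10 and 12 of 40 targets higher and 0 lower. Between 218650001 and 218800000 it had 0.453 and 0.574, 0.698 and 0.723, and 0.483 and 0.448 times, with 2 and 16 of 44 targets lower and 0 higher. The other 157 fragments of 2q35 had a like order of GM06990 and the breast lines in these 3 stretches, at higher levels. They had 1.84 ± 0.107, 1.55 ± 0.0498 and 1.86 ± 0.0515 times in the first, 1.79 ± 0.141, 1.64 ± 0.136 and 1.83 ± 0.00663 times in the second, where the SDs of BT483 and GM06990 overlap, and 1.06 ± 0.0723, 1.5 ± 4.86e-05 and 1.07 ± 0.00557 times in the last. For the block these 3 stretches kept their direction with near cis totals and with TMM factors.

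Single targets with large differences lay among these stretches and beyond them. The target from 218362745 to 218364251 adjoins the block, and its summed contacts were 296 and 538 in BT483, 325 and 319 in GM06990, and 1303 and 1303 in SUM44. This is 0.790 and 1.32, 0.247 and 0.248, and 1.04 and 1.09 times the background, so that GM06990 lay well below its own background and both breast lines near theirs. The expected counts were 375 and 407 in BT483, 1318 and 1289 in GM06990, and 1254 and 1196 in SUM44. At the next target, from 218364252, they were 139 and 328, 369 and 316, and 1005 and 917. The difference thus rests on the background fitted at the shortest distances, whose part in it was not tested. BT483 was higher than GM06990 by 2.10 on the log2 scale (SE 0.19, edgeR adjusted p = 1.31e-08), and SUM44 by 2.11 (SE 0.18, adjusted p = 1.56e-09). With near cis totals they were 1.14 (adjusted p = 0.0204) and 0.30 (adjusted p = 0.568).

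Contacts of the last captured fragments with this adjoining target were uneven between the BT483 replicates. Of the telomeric contacts of the fragment from 218357139 to 218358947, the target took 35.6% in BT483 replicate 1 and 5.79% in replicate 2, 5.19% and 9.26% in GM06990, and 5.45% and 4.60% in SUM44. For the fragment from 218355733 to 218357138 the shares were 25.1% and 6.22%, 3.95% and 6.57%, and 4.72% and 4.57%. BT483 replicate 1 stood far above the other 5 libraries in both. Over the next fragment, the last of the block, from 218358948 to 218362744, its share was 19.7%, against 2.29% to 9.28% elsewhere.

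Among the other targets, 217426563 to 217426875 had 14 and 60 contacts in BT483, 16 and 13 in GM06990, and 195 and 168 in SUM44. SUM44 was higher than GM06990 by 2.11 (SE 0.29, edgeR adjusted p = 7.15e-06), and the call held in each alternative run. The target from 217304494 to 217304786 had the largest difference of BT483 from GM06990, 2.36 (SE 0.48, adjusted p = 0.00161), from 4 and 43 contacts against 3 and 8, and it lost the call without BT483 replicate 2 (adjusted p = 0.244) and without GM06990 replicate 1 (adjusted p = 0.0525). The other 3 named targets higher in BT483, starting at 216078933, 216843871 and 219108758, had differences of 1.90 to 2.06 with at most 9 contacts per GM06990 library. Those higher in SUM44, starting at 216135973, 216171231 and 216267378, had 2.04 to 2.19 with at most 4. A target was tested only with at least 50 contacts in 1 line. The targets named in this paragraph met that minimum only through a breast line, so the filter favoured this direction.

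Lower targets were nearer and deeper in SUM44. The target from 217252214 to 217259810 had 56 and 43 contacts in SUM44 and 58 and 53 in GM06990, which is 0.629 and 0.530 times the background against 1.82 and 1.79, and it was lower by 1.63 on the log2 scale (log2 difference -1.63, SE 0.26, edgeR adjusted p = 3.89e-05). Those starting at 217099733, 217161858 and 217211385 followed, at -1.55, -1.51 and -1.48, and that starting at 217067271 at -1.31. The target from 217211385 to 217216120 was also lower in BT483, at -1.14 (SE 0.29, adjusted p = 0.00984), with 1.47 and 0.99 times the background against 2.24 and 2.46 in GM06990. That call ended without BT483 replicate 2 (adjusted p = 0.475) and without GM06990 replicate 2 (adjusted p = 0.0742). Other targets lower in BT483 started at 219973591, at -1.53 (SE 0.47, adjusted p = 0.0292) from 2 and 12 contacts, and at 218417526, 218764048 and 218791433, at -0.82 to -0.90.

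BT483 and SUM44 differed at 3 targets of the block, all on the centromeric side. The target from 217148106 to 217151487 was higher in BT483, with 1.02 and 1.81 times the background against 0.603 and 0.572 (log2 difference 1.5, SE 0.30, edgeR adjusted p = 0.0114). Those from 217439063 to 217441415 and from 217461897 to 217463304 were lower in BT483. The latter had 1.64 and 1.82 times the background in BT483, 1.58 and 1.28 in GM06990, and 3.49 and 3.45 in SUM44, and the differences were -1.0 (SE 0.23, adjusted p = 0.0290) and -0.96 (SE 0.21, adjusted p = 0.0221). None of the 3 passed the threshold in DESeq2, without either SUM44 library or without BT483 replicate 2.

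Within each library the block was then set against the other 157 fragments of 2q35, by the ratio to the distance background in windows of 50 kb. Of 202 windows, 94 differed (limma, adjusted p under 0.05), which is 46.5%, with 19.3% higher and 27.2% lower. On the centromeric side 38 were higher in the block and 3 lower, and on the telomeric side 1 was higher and 52 lower. Both sets of fragments share a distance background fitted to them together, so a gain of one is in part a loss of the other by construction. Without any 1 library the count was 80 to 120.

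The 5 windows with the largest difference flank the captured region. In the window from 217450001 to 217500000 the block had 1.70 and 2.10 times the background in BT483, 1.43 and 1.37 in GM06990, and 2.77 and 2.80 in SUM44, and the other fragments had between 0.709 and 0.887 times in the 6 libraries. The log2 difference between the sets was 1.22 (SE 0.07, limma adjusted p = 0.000105). The windows starting at 217400001 and 217500001 followed at 1.11 (SE 0.08) and 1.08 (SE 0.07). On the telomeric side the block was lower by 1.16 and 1.12 on the log2 scale in the windows starting at 218700001 (log2 difference -1.16, SE 0.12) and 218650001 (log2 difference -1.12, SE 0.09). In the latter it had 0.412 ± 0.0233 times the background in SUM44 against 0.945 ± 0.0159 for the other fragments, and 0.728 ± 0.0217 against 1.54 ± 0.125 in GM06990 (mean ± SD, n = 2). All 5 kept their call in every setting run with windows of this size.

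The difference between the block and the other fragments was itself compared between lines, and 0 of 202 windows passed the threshold in any of the 3 comparisons (limma, beside 0% each), with 20, 15 and 21 windows at an unadjusted p under 0.05 for BT483 against GM06990, SUM44 against GM06990 and BT483 against SUM44. The contrast between the block and the rest of 2q35 was thus not shown to differ between the lines, with 2 replicates a line.

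The balance of both sides needs no scaling, because telomeric and centromeric contacts of a fragment come from the same library. Telomeric contacts of the block were 1.48 and 1.18 times the centromeric ones in BT483, 1.40 and 1.38 times in GM06990, and 1.42 and 1.42 times in SUM44. For the other fragments of 2q35 the ratios were 0.966 and 0.987, 1.21 and 1.19, and 1.03 and 1.05. The block lies at the telomeric end of the capture, at most 212 kb from its telomeric edge and at least 531 kb from its centromeric one. Against distance, its centromeric contacts were raised, at 1.23 and 1.29 times the background in BT483, 1.14 and 1.09 in GM06990, and 1.44 and 1.43 in SUM44, and the telomeric ones lay at 0.757 to 0.871 times in the 6 libraries.

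The balance of single fragments differed little between lines. It was called at 1 of 70 fragments for BT483 against GM06990 (limma, beside 3.64% of all captured fragments, 0.287% higher and 3.35% lower), and at 0 for SUM44 against GM06990 (beside 3.83%, of which 0.383% higher and 3.45% lower, with 2 at an unadjusted p under 0.05) and for BT483 against SUM44 (beside 0.192%, 8 at an unadjusted p under 0.05). The 1 called was the fragment from 218229038 to 218229241, of low depth, with a log2 difference of 2.21 (SE 0.44, adjusted p = 0.0498). With at least 50 contacts required on each side in 1 line 0 were called, and without either GM06990 or either SUM44 library 0 were called. Without BT483 replicate 1 there were 2 and without replicate 2 there were 8, and 3 for BT483 against SUM44 without BT483 replicate 2.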

How the data were processed

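Capture Hi-C pairs of the 3 lines were read from the tables of contacts outside the captured regions, which hold raw counts of ligated read pairs per captured fragment and target fragment, deposited by the authors with 1 column per replicate and reaching 5 Mb to each side. Per the submitters' processing notes CASAVA 1.8 was used and positions are those of GRCh37 (hg19). For the aligner, the read filters and the handling of duplicates the entry is "not given in the sources used here", so intervals cover counting error only. Trans counts of each captured fragment came from the same tables. Contacts inside the captured region, coarser tables and trans maps were not used here.

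Side sums (at least 10 contacts in all) and target sums (at least 50 in 1 line) were tested in edgeR 4.0.16 by the quasi-likelihood test, over all captured regions in 1 fit, with offsets from trans counts or from a distance background, and Benjamini-Hochberg adjustment at 0.05. The background was a negative binomial regression on a cubic spline of log10 distance (4 knots) and log trans count, fitted per replicate for target sums and on summed replicates for pairs, which were called at an adjusted p of at most 0.01 with at least 5 contacts. limma 3.58.1 tested the telomeric to centromeric ratio and 50 kb windows, with 1 added to counts. DESeq2 1.42.0 on R 4.3.3, SciPy 1.17.1 and Python 3.11.15 were also used. The main edgeR and limma tests were run on simulated data with a spread set in advance, and the pair calls on data simulated from SUM44. DESeq2, the other scalings and the fit with a replicate block were not simulated. The captured fragments, lists and tests were chosen with earlier results of these data known. Named items are the fragment at the risk position, the 3 highest and 3 lowest fragments per side, the 3 called fragments with the largest change per comparison and side, the 5 highest and 5 lowest called targets per comparison, up to 5 called pairs per line, and 5 windows. Stretches of windows and single neighbours described beside them were chosen after their values were seen.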

Additional observations from a re-analysis of the deposited data

How the results depend on the processing

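Counts of called sides of the 140 depended on the scaling. With TMM factors they were 16 for BT483 against GM06990, 4 for SUM44 against GM06990 and 11 for BT483 against SUM44, and with near cis totals 11 and 0 for the last 2. Without 1 library at a time the 3 counts ranged from 0 to 4, 0 to 135 and 0 to 137. Called balances for BT483 against GM06990 were 2 with a pseudocount of 5, 0 with at least 50 contacts, 2 within 1 Mb, and 0 to 8 without 1 library; for BT483 against SUM44 the last range was 0 to 3. Called targets with DESeq2 were 20, 63 and 0 in the order of comparisons above, and 21 to 105, 46 to 225 and 0 to 22 without 1 library. For BT483 against SUM44 they were 23 with near cis totals and 6 with at least 20 contacts. Windows of 100 kb gave 61 calls. Called pairs were 0 in BT483 and SUM44 at an adjusted p of 0.001, 12 in SUM44 at 0.05, and 7 and 5 with distance as the only term. Single replicates gave 0 to 2 in BT483 and 0 to 0 in SUM44. The cause of these changes was not tested. With near cis totals 2 differences of BT483 from SUM44 changed sign, to 0.25 for the centromeric side of the fragment from 218167837 and to -0.13 for the target from 217560727.

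Same-numbered replicates did not deviate together (correlations of -0.17 to 0.04), and the main tests did not pair the libraries by number. Such correlations cannot tell whether same-numbered libraries were prepared together. A fit with the replicate number as a block gave 0 called sides for each comparison, 48, 154 and 5 called targets, 89 windows, and 1, 0 and 0 called balances.

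Each line had 2 replicates of 1 sample, and BT483 replicate 1 had the fewest contacts.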
